A study of Homo sapiens with 66 samples.

Results

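The 9 genes described here are ALDH1A3, ALDH1A3-AS1, STMND1, PRDM1, ADGRF1, RND3, PIM1, BCL6 and LINC02029, 9 of the 58051 genes counted in RNA-seq libraries of DLD-1, a human colorectal cancer cell line. They were chosen by their own measured values: each had been seen to be higher after auxin in several cell lines of this series, so their values and calls in those comparisons only describe which of them passed the thresholds used for all genes, and support nothing. The study removed single nuclear pore and mRNA export proteins from DLD-1 cells with an auxin-inducible degron (AID): a protein that carries this tag is degraded once auxin is added. Per the study's methods, TIR1, the plant F-box protein that auxin binds, was expressed from the RCC1 locus, and the tags were placed in both copies of the endogenous genes by CRISPR/Cas9 in clones, so a line may differ from the parent by more than its tag. There were 66 libraries in 22 groups of 3. The lines were AID-NeonGreen-TPR (AID-TPR below), NUP153-NeonGreen-AID (NUP153-AID), NUP50-NeonGreen-AID (NUP50-AID), GAP1-NeonGreen-AID (RANGAP1-AID), AID-FLAG-NXF1 (AID-NXF1), AID-HA-GANP1 (AID-GANP) and original DLD-1. Each line was sampled untreated and after auxin, which was used at 1 mM. Auxin lasted 2 h in AID-TPR, NUP153-AID, RANGAP1-AID, AID-NXF1 and DLD-1 and 3 h in NUP50-AID and AID-GANP. It lasted 8 h in a further group of NUP153-AID and RANGAP1-AID and 9 h in one of NUP50-AID. AID-TPR has a further set of 9 libraries, numbered "old" in the labels, with an untreated group and auxin groups at 2 h and 8 h, called AID-TPR old here. AID-TPR cells given Actinomycin D (ActD), an inhibitor of transcription, alone or with auxin for 2 h, make up the last 2 groups.

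TPR, NUP153 and NUP50 form the basket on the nuclear face of the nuclear pore, NXF1 is the main export receptor of mRNA, GANP is the scaffold of the TREX-2 export complex, and RANGAP1 makes Ran hydrolyse GTP on the cytoplasmic side of the pore. The 9 genes belong to no single pathway. ALDH1A3 encodes an aldehyde dehydrogenase that makes retinoic acid from retinal, and ALDH1A3-AS1 is a long non-coding RNA on the opposite strand of the same locus. PRDM1 (BLIMP1) and BCL6 are zinc finger repressors, known for repressing each other's programmes in B cells, and PRDM1 also holds back maturation in the fetal intestinal epithelium. PIM1 is a serine/threonine kinase and a textbook target of JAK-STAT signalling. RND3 is an atypical small GTPase that stays bound to GTP and acts on the actin cytoskeleton. ADGRF1 is an adhesion G protein-coupled receptor, STMND1 encodes a protein with a stathmin domain, and LINC02029 is a long non-coding RNA.

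In GENCODE v44 on GRCh38, 4 of the 9 genes lie on chromosome 6: STMND1 at chr6:17102050-17131378 on the plus strand, PIM1 at chr6:37170152-37175428 on the plus strand, ADGRF1 at chr6:46997708-47042350 on the minus strand and PRDM1 at chr6:105993463-106109939 on the plus strand. ALDH1A3 (chr15:100877714-100916626, plus strand) and ALDH1A3-AS1 (chr15:100892343-100919391, minus strand) overlap. BCL6 lies at chr3:187721377-187745725 on the minus strand, LINC02029 at chr3:157081738-157088547 on the plus strand and RND3 at chr2:150468195-150539011 on the minus strand.

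The start regions of 4 genes are shown because these genes stand for the patterns described below: ALDH1A3 and STMND1 had mean levels above untreated in every tagged comparison, and PRDM1 and BCL6 were higher early and lower late in NUP153-AID. Each is the 300 bases from 250 before to 50 after a RefSeq gene start on GRCh38.p14, written 5′ to 3′ on the gene's strand, with matches to any of 9 short motifs in capitals. They are ALDH1A3 at chr15:100879581-100879880 (plus), STMND1 at chr6:17101800-17102099 (plus), the downstream of the listed PRDM1 starts at chr6:106098691-106098990 (plus) and the upstream of the listed BCL6 starts at chr3:187745419-187745718 (minus).
ALDH1A3: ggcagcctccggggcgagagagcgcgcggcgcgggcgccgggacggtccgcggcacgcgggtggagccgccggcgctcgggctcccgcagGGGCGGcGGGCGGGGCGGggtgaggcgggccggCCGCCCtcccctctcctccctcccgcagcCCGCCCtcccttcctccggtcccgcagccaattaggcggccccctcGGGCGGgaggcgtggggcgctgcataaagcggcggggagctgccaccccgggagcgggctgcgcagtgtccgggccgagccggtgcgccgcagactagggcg
STMND1: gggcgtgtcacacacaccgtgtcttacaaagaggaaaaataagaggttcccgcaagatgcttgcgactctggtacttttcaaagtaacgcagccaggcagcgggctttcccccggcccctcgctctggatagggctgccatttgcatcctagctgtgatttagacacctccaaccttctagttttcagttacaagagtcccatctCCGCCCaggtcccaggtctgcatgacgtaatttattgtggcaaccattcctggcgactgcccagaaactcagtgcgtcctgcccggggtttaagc
PRDM1: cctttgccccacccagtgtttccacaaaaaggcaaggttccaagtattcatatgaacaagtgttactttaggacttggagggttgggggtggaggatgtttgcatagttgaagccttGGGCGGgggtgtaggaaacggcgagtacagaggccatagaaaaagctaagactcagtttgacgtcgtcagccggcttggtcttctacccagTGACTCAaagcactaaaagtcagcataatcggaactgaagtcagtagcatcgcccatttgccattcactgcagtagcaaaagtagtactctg
BCL6: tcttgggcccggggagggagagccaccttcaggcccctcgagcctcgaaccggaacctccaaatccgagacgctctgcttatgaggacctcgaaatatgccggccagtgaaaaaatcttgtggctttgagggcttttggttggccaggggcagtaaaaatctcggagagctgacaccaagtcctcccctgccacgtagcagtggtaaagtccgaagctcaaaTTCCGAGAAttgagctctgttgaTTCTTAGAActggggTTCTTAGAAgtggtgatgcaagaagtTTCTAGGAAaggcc

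All 9 genes had an entry in the RefSeq table, 12 start regions in all. The motifs were searched on both strands. A gene was counted if any of its start regions held the motif. The share over all 35116 start regions of that table was taken per region, so the 2 are not the same measure. The capitals of ALDH1A3 and STMND1 are GC boxes (GGGCGG), which 6 of the 9 genes and 45% of all start regions held. The capitals of PRDM1 are a GC box and an AP-1 site (TGANTCA), a motif found at 3 of the 9 genes and in 7.71% of all regions. The upstream of the listed PRDM1 starts, not shown, held no match to any of the motifs. Those of BCL6 are 4 matches to the STAT motif TTCNNNGAA, which BCL6 alone of the 9 held and which 7.66% of all regions held. TATAAA was found at RND3 and LINC02029 (11.5% of all regions) and TNGCGTG, the core bound by the aryl hydrocarbon receptor, at LINC02029 (5.51%). The cAMP response element TGACGTCA (1.85%), the E-box CACGTG (7.26%), the half-site AGGTCA (13.8%) and the core of the serum response element (1.2%) were found at none of the 9 in these windows. GC content was 81.7% at ALDH1A3, 79.7% at PIM1 and 82.3% at ALDH1A3-AS1, against a median of 58.7% over all regions. All start regions of the other genes were below that median, at 48.3% to 54.3%.

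Libraries held 18943661 to 55411411 counted reads, with a median of 32285399. Of 9 markers of intestinal epithelium, 7 were above 1 CPM (read counts scaled to a common library total) on average and CDX1 and LGALS4 were near 0, with at most 0.537 and 0.701 CPM in any library. The summed level of 8 markers of stroma, blood and endothelium was 1.71 to 14.2 CPM, most of it VWF. The mRNA of the tagged genes differed by between -0.06 and 0.29 on the log2 scale after auxin, so it does not show the loss of protein. Some libraries went against their labels. CYP1A1, a textbook target of the aryl hydrocarbon receptor, had a log2 fold change of 1.14 to 6.68 after auxin in the 11 comparisons of tagged lines, but of -3.84 in DLD-1, where it stood at 201, 179 and 171 CPM in the libraries labelled untreated and at 14.5, 14 and 9.55 CPM in those labelled auxin. The read numbers published with the study place the DLD-1 libraries labelled untreated under auxin and the reverse. The direction of every DLD-1 difference therefore rests on labels that may be exchanged, and the DLD-1 groups are called by their labels throughout. In AID-TPR old, library old2 labelled 2 h correlated across genes at 0.66 and 0.80 with the 8 h libraries old1 and old3 and at -0.37 with both other 2 h libraries, which correlated at -0.15 with each other, on log2 CPM centred per gene over the 9 libraries. Library old2 labelled 8 h correlated at 0.51 with old3 and -0.06 with old1 of 2 h, and at -0.43 and -0.37 with the other 8 h libraries. CYP1A1 in these groups read 421, 44.4 and 349 CPM at 2 h and 89.1, 282 and 41.2 CPM at 8 h. Values of the 9 genes in AID-TPR old are therefore given with and without old2, and those of other genes with it only.

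A call of higher needed a fold of 1.3 or more together with an adjusted p below 0.05 in edgeR's quasi-likelihood test, and a call of lower a fold of 0.7 or less. Genes called in DLD-1 were removed from the calls of the tagged lines. All 9 genes passed the filter on low counts that left 17812 tested genes, though STMND1 and LINC02029 had as few as 2 reads in a library. STMND1 was over 1 CPM in 0 of 21 untreated and 31 of 33 auxin libraries of the tagged lines, so it passed only through the groups where it was high, and its calls are no support. The other 8 genes were over 1 CPM in at least 8 of the 21 untreated libraries. In bulk RNA, a change in the share of cells that express a gene and a change in RNA per cell cannot be told apart. Since the 9 genes were chosen on these contrasts, the counts below are read beside the share of all tested genes with the same call and nothing is drawn from the excess.

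After 2 h of auxin in AID-TPR, 8 of the 9 genes were called higher, all but ADGRF1, and all 9 log2 fold changes were above 0, with a median of 0.97. Over all tested genes 0.073% were called higher, 0.404% were called lower and the median log2 fold change was 0.01. In AID-TPR old at 2 h, 6 of 9 were called higher (0.135% of all genes higher, 0.309% lower), and 7 without auxin library old2. At 8 h of that set 7 of 9 were called higher (1.23% of all genes higher, 2.36% lower), also 7 without auxin library old2. The AID-TPR old counts fell when some single libraries were left out: without untreated old2, 0 of 9 passed at either time, and without auxin old3, 0 of 9 passed at 8 h. In AID-TPR itself, leaving out untreated replicate 3 left 2 of 9. In RANGAP1-AID, 8 of 9 were called higher at 2 h (0.438% of all genes higher, 0.107% lower). At 8 h, 6 were called higher and PRDM1 lower, where 8.23% of all genes were called higher and 6.62% lower.

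AID-GANP at 3 h had 8 of 9 called higher (3.93% of all genes higher, 11.5% lower) and AID-NXF1 at 2 h had 4 of 9 (2.18% of all genes higher, 5.93% lower). NUP50-AID had 3 of 9 at 3 h (0.168% higher, 0.0112% lower) and 1 of 9 at 9 h (0.219% higher, 0.146% lower). In NUP153-AID at 2 h edgeR called 0 of 9, although all 9 log2 fold changes were above 0 and 7 genes had an unadjusted p under 0.05, and 0.0168% of all genes were called higher and 0.00561% lower. DESeq2 called 4 of 9 there, and so did edgeR with the replicate number as a block, in a comparison whose same-numbered libraries deviated together. At 8 h in NUP153-AID, STMND1 was called higher and PRDM1 and BCL6 lower (0.915% of all genes higher, 0.404% lower). Leaving out any 1 of several libraries lost these calls. Of the 9 genes, 0 were higher without auxin replicate 2 or 3 or any 1 of the untreated libraries. None was lower without auxin replicate 2 or 3 or untreated replicate 1. With the replicate block, where numbers did not pair the libraries, 0 passed in either direction. With the replicate block 5 of 9 passed in AID-GANP, 1 of 9 in AID-NXF1 and PRDM1 no longer passed as lower in RANGAP1-AID at 8 h. These losses came with STMND1, PRDM1 and LINC02029 being called lower in DLD-1 under the same setting and so removed.

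**Figure D1:**
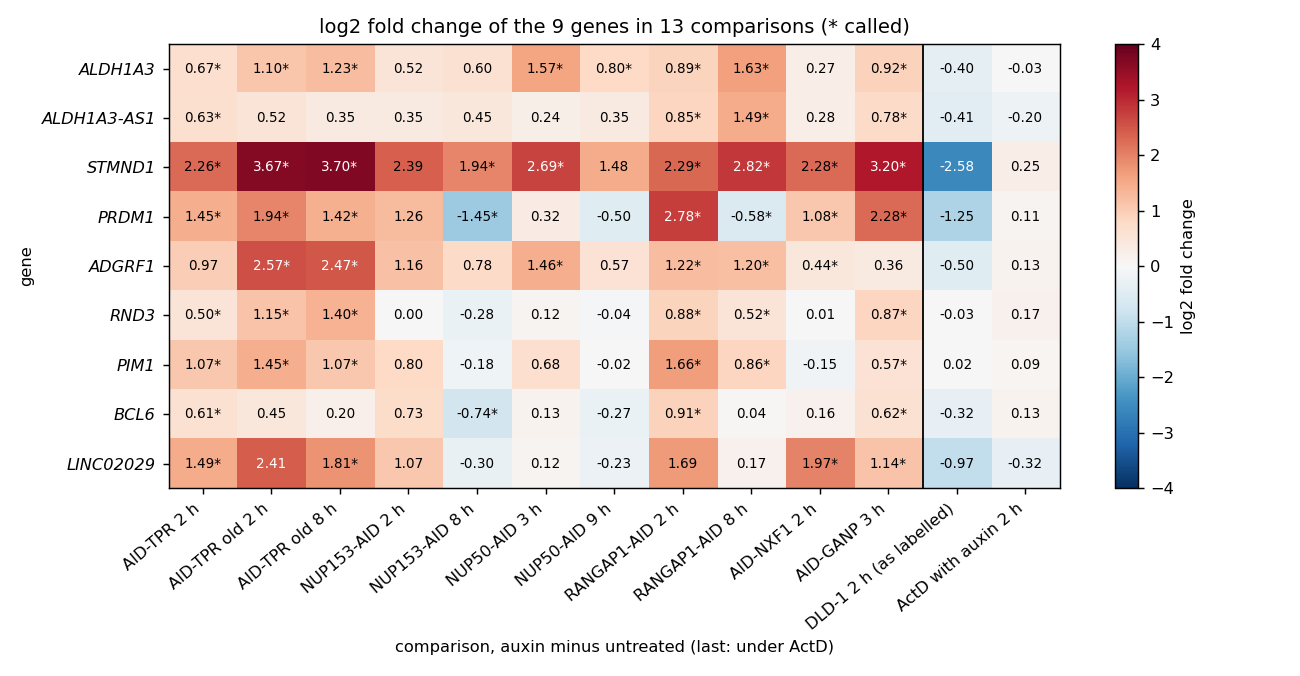
Heat map of the log2 fold change (colour and number) of the 9 genes (rows) in 13 comparisons (columns), auxin minus untreated of the same line, with an asterisk at called values; the last 2 columns are DLD-1 as labelled and auxin under ActD. STMND1 reaches 3.70 in AID-TPR old at 8 h and PRDM1 ranges from -1.45 to 2.78.

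ALDH1A3 was above its untreated group in all 11 comparisons of tagged lines, by log2 fold changes of 0.27 to 1.63, and called higher in 8. Its level read 20.7, 16.3 and 17.9 CPM in untreated AID-TPR and 30.6, 28.3 and 26.6 CPM after auxin, a log2 fold change of 0.67 ± 0.09 (SE). In RANGAP1-AID it went from 10.4, 10.8 and 11.2 CPM to 19, 20 and 19.7 CPM at 2 h and 31.8, 31.9 and 33.3 CPM at 8 h. The 3 groups of RANGAP1-AID did not overlap, and the log2 fold change was 0.89 ± 0.09 at 2 h and 1.63 ± 0.07 at 8 h. NUP50-AID showed the opposite order of times: from 4.26, 4 and 4.27 CPM it stood at 12.9, 14.8 and 9.13 CPM at 3 h and at 7.23, 8.02 and 6.86 CPM at 9 h. Both auxin groups lay above the untreated libraries, by 1.57 ± 0.18 and 0.80 ± 0.13 on the log2 scale.

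In AID-TPR old, ALDH1A3 read 8.44, 7.97 and 7.31 CPM untreated, 16, 15.9 and 15.2 CPM at 2 h and 20.9, 11.6 and 18.3 CPM at 8 h, where the low value is library old2. The log2 fold change was 1.10 ± 0.16 at 2 h and 1.23 ± 0.22 at 8 h, and 1.05 and 1.44 without auxin library old2. In AID-GANP it went from 10, 10.3 and 9.55 CPM to 19.3, 18.3 and 14.9 CPM, with no overlap. The groups overlapped in AID-NXF1, whose untreated level was the highest of the series at 86.1, 90 and 71.7 CPM against 97.2, 102 and 88 CPM after auxin. They also overlapped in NUP153-AID, at 6.3, 9.39 and 6.83 CPM untreated, 10.6, 12.4 and 9.14 CPM at 2 h and 8.68, 14.5 and 11.7 CPM at 8 h.

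Untreated ALDH1A3 levels differed between lines by more than auxin changed them in any line. Untreated AID-NXF1 had 82.6 ± 9.64 CPM (SD, n = 3) and DLD-1 labelled untreated 21.8 ± 0.247 CPM, followed by AID-TPR at 18.3 ± 2.21, RANGAP1-AID at 10.8 ± 0.384, AID-GANP at 9.95 ± 0.372, AID-TPR old at 7.9 ± 0.567, NUP153-AID at 7.51 ± 1.65 and NUP50-AID at 4.17 ± 0.154 CPM. In this order only AID-TPR old and NUP153-AID overlapped as neighbours. This order spans libraries that may have been counted in different ways, the AID-TPR sets among them, and the part of counting in it was not tested.

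**Figure D2:**
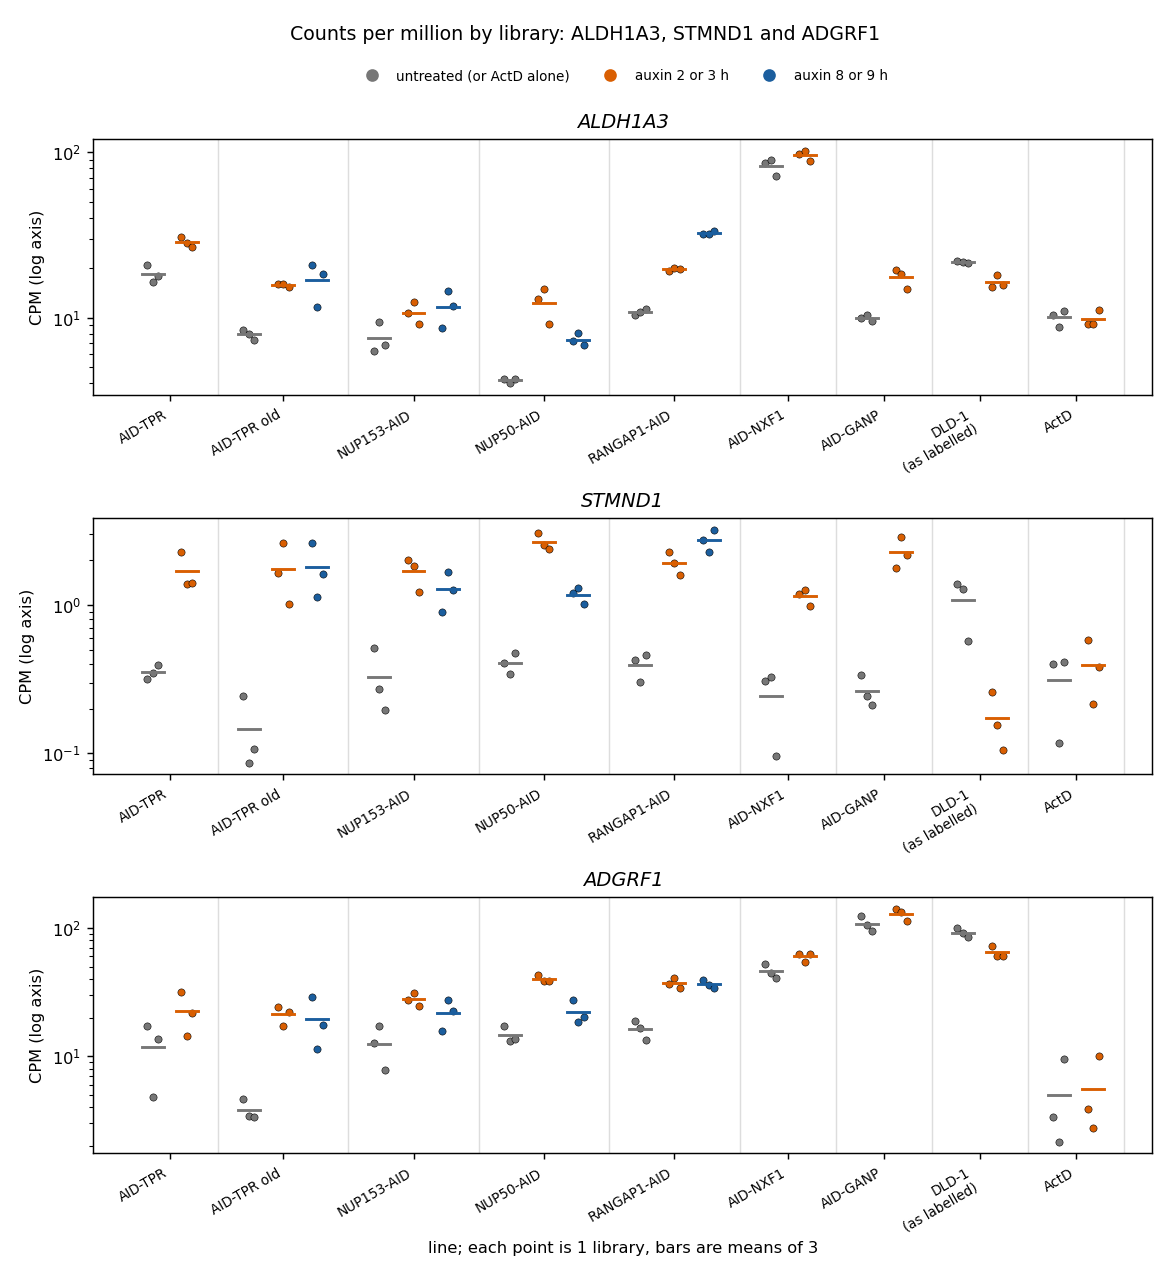
CPM (log axis) of ALDH1A3, STMND1 and ADGRF1 in each library, by line, with the mean of 3 libraries as a bar; grey is untreated or ActD alone, orange auxin for 2 or 3 h and blue auxin for 8 or 9 h. The auxin points of STMND1 lie above the untreated ones in every tagged line and below them in DLD-1 as labelled.

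ALDH1A3-AS1 was above untreated in all 11 comparisons, by 0.24 to 1.49 on the log2 scale, and was called in 4. These were AID-TPR (0.63 ± 0.09), RANGAP1-AID at 2 h (0.85 ± 0.11) and 8 h (1.49 ± 0.08) and AID-GANP (0.78 ± 0.12). Its exons share 1715 bases with those of ALDH1A3 on the other strand, 22.1% of its own and 32.1% of ALDH1A3's. Where counting does not use strand, reads from that stretch cannot be assigned to either gene. The ratio of ALDH1A3-AS1 to ALDH1A3 counts was 0.614 to 0.807 in the 24 libraries without mitochondrial counts and 0.684 to 0.799 in the 9 of RANGAP1-AID. It was 0.119 to 0.486 in the other 33 libraries, which had mitochondrial counts but none on RMRP. By mitochondrial and RMRP counts the libraries fell into 3 sets, which may have been counted in different ways. The labels do not say how they were counted. The 4 calls of ALDH1A3-AS1 all fell in the library sets with the high ratio, and in the sets with the low ratio its auxin and untreated libraries overlapped in each comparison. In AID-TPR old its log2 fold change was 0.52 at 2 h and 0.35 at 8 h, and 0.69 and 0.47 without auxin library old2. The part of shared reads in these calls was not tested.

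**Figure D3:**
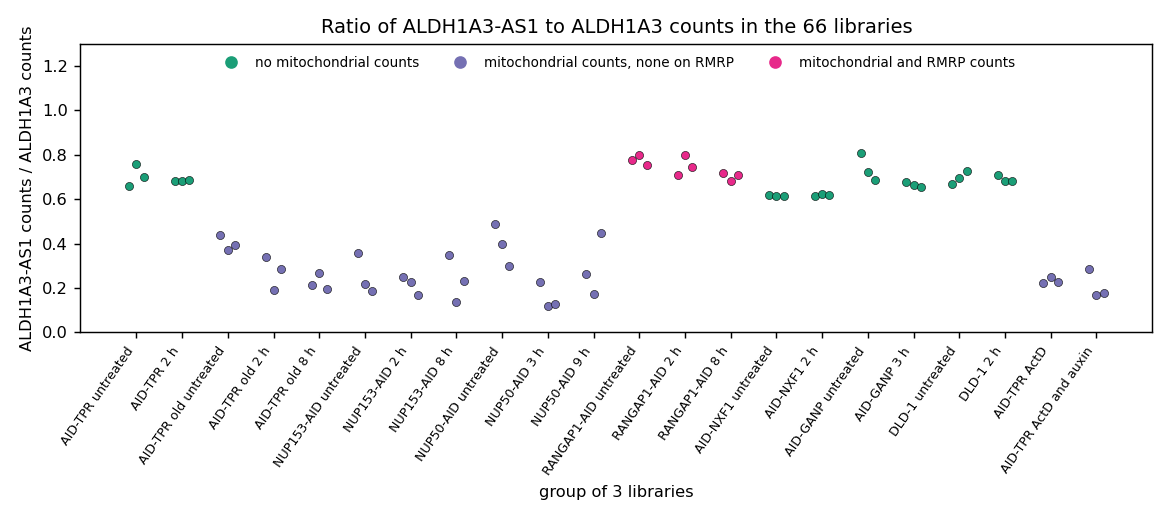
Ratio of ALDH1A3-AS1 counts to ALDH1A3 counts (vertical axis, linear) in each of the 66 libraries, by group (horizontal axis), coloured by whether the library had mitochondrial counts and counts on RMRP. Libraries with mitochondrial counts and none on RMRP lie between 0.119 and 0.486, and all others between 0.614 and 0.807.

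STMND1 had the largest log2 fold change of the 9 genes in every tagged comparison but RANGAP1-AID at 2 h, where that of PRDM1 was larger. Its auxin libraries lay above the untreated ones in all 11. Its log2 fold change ran from 1.48 to 3.70 with a median of 2.39. It was also the lowest of the 9 per kilobase of exon in every untreated group, at 0.0471 to 0.348 CPM per kb, on 2 to 135 reads a library in the whole series. AID-TPR read 0.315, 0.348 and 0.391 CPM untreated and 2.27, 1.38 and 1.41 CPM after auxin (2.26 ± 0.29). In AID-TPR old it read 0.243, 0.0866 and 0.107 CPM untreated, 1.63, 2.6 and 1.02 CPM at 2 h and 2.61, 1.13 and 1.62 CPM at 8 h. The log2 fold changes of 3.67 ± 0.53 and 3.70 ± 0.49 were 3.20 and 3.94 without auxin library old2.

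In the other lines STMND1 lay in a like range after auxin. AID-GANP went from 0.335, 0.243 and 0.213 CPM to 1.77, 2.85 and 2.17 CPM (3.20 ± 0.28), and AID-NXF1 from 0.308, 0.326 and 0.0956 CPM to 1.19, 1.25 and 0.98 CPM (2.28 ± 0.34). RANGAP1-AID went from 0.425, 0.301 and 0.46 CPM to 2.27, 1.91 and 1.6 CPM at 2 h and 2.74, 2.28 and 3.21 CPM at 8 h. In NUP50-AID and NUP153-AID the mean was higher at the earlier time, with times that overlapped in NUP153-AID. NUP50-AID read 3.06, 2.53 and 2.38 CPM at 3 h and 1.2, 1.29 and 1.02 CPM at 9 h, from 0.405, 0.344 and 0.474 CPM untreated. NUP153-AID read 2.02, 1.83 and 1.23 CPM at 2 h and 0.892, 1.67 and 1.25 CPM at 8 h, from 0.512, 0.272 and 0.196 CPM. Untreated levels of neighbouring lines overlapped along the whole order of tagged lines, and only DLD-1 labelled untreated, at 1.08 ± 0.44 CPM (SD, n = 3), stood apart.

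ADGRF1 was above untreated in all 11 comparisons and called in 6, from 0.36 in AID-GANP to 2.57 in AID-TPR old at 2 h. In AID-TPR old it read 4.66, 3.42 and 3.4 CPM untreated, 24.4, 17.3 and 22.1 CPM at 2 h and 29.2, 11.5 and 17.7 CPM at 8 h, with no overlap. Without auxin library old2 the log2 fold changes were 2.67 and 2.74. In the other AID-TPR set the groups overlapped: 17.1, 4.84 and 13.6 CPM untreated and 31.9, 14.3 and 21.7 CPM after auxin (0.97 ± 0.38). RANGAP1-AID went from 19, 16.6 and 13.3 CPM to 36.7, 41.1 and 33.8 CPM at 2 h, and NUP50-AID from 17.2, 13.2 and 13.7 CPM to 42.9, 38.4 and 38.5 CPM at 3 h. Untreated levels ran from 3.83 ± 0.722 CPM in AID-TPR old to 108 ± 15.2 CPM in AID-GANP, which overlapped DLD-1 labelled untreated at 92.2 ± 6.83 CPM. The smallest fold changes of ADGRF1 were in the tagged lines with the highest untreated level, AID-GANP and AID-NXF1.

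PRDM1 stood above its untreated level early and below it late in RANGAP1-AID and NUP153-AID. In RANGAP1-AID it went from 2.38, 2.14 and 2.06 CPM to 16.4, 16.2 and 11.7 CPM at 2 h and to 1.15, 1.43 and 1.66 CPM at 8 h. The log2 fold change was 2.78 ± 0.16 at 2 h, the highest of any of the 9 genes in that comparison, and -0.58 ± 0.18 at 8 h. In NUP153-AID it read 3.23, 2.15 and 3.35 CPM untreated, 9.05, 5.14 and 6.66 CPM at 2 h and 1.02, 0.87 and 1.39 CPM at 8 h. All auxin libraries lay above the untreated at 2 h (1.26 ± 0.23, not called) and below them at 8 h (-1.45 ± 0.25, called lower). In NUP50-AID the groups overlapped at both times, with log2 fold changes of 0.32 ± 0.24 at 3 h and -0.50 ± 0.24 at 9 h.

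In the lines with a single time PRDM1 was higher after auxin with no overlap. AID-TPR read 3.64, 4.17 and 3.36 CPM untreated and 9.48, 8.38 and 12.1 CPM after auxin (1.45 ± 0.16). AID-GANP read 2.2, 3.1 and 1.95 CPM and then 9.57, 13.8 and 9.48 CPM (2.28 ± 0.20), and AID-NXF1 2.37, 2.94 and 2.96 CPM and then 4.98, 5.64 and 6.14 CPM (1.08 ± 0.13). In AID-TPR old it read 2.23, 2.04 and 2.44 CPM untreated, 10.4, 4.38 and 9.64 CPM at 2 h and 4.78, 8.07 and 3.56 CPM at 8 h. The middle value of each auxin group is library old2, which sits at the level of the other time. The log2 fold changes were 1.94 ± 0.30 and 1.42 ± 0.31 with it and 2.22 and 1.02 without it, so that AID-TPR old stayed above its untreated group at 8 h either way. Untreated tagged lines held 2.19 to 3.72 CPM, and all neighbours in their order overlapped but AID-TPR and NUP153-AID.

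BCL6 followed PRDM1 with smaller changes. In NUP153-AID it read 7.97, 7.93 and 8.03 CPM untreated, 14.9, 11.3 and 13.3 CPM at 2 h and 5.22, 4.33 and 5.1 CPM at 8 h, above all untreated libraries first (0.73 ± 0.11, not called) and below them later (-0.74 ± 0.12, called lower). In RANGAP1-AID it went from 13.6, 14.3 and 13.8 CPM to 27.4, 25.4 and 23.7 CPM at 2 h (0.91 ± 0.09) and was at 14, 13.4 and 14.2 CPM at 8 h, overlapping the untreated libraries (0.04 ± 0.08). It was also called higher in AID-TPR, from 8.41, 8.78 and 8.95 CPM to 12.7, 13.4 and 13.1 CPM (0.61 ± 0.10), and in AID-GANP (0.62 ± 0.09). In AID-TPR old, NUP50-AID and AID-NXF1 the groups overlapped. The AID-TPR old values of 0.45 at 2 h and 0.20 at 8 h were 0.53 and 0.08 without auxin library old2. Over the 11 comparisons, which share untreated libraries within a line, the log2 fold changes of PRDM1 and BCL6 had Pearson's r of 0.91, the highest of the 36 pairs among the 9 genes. ALDH1A3 and PRDM1 had an r of -0.11.

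**Figure D4:**
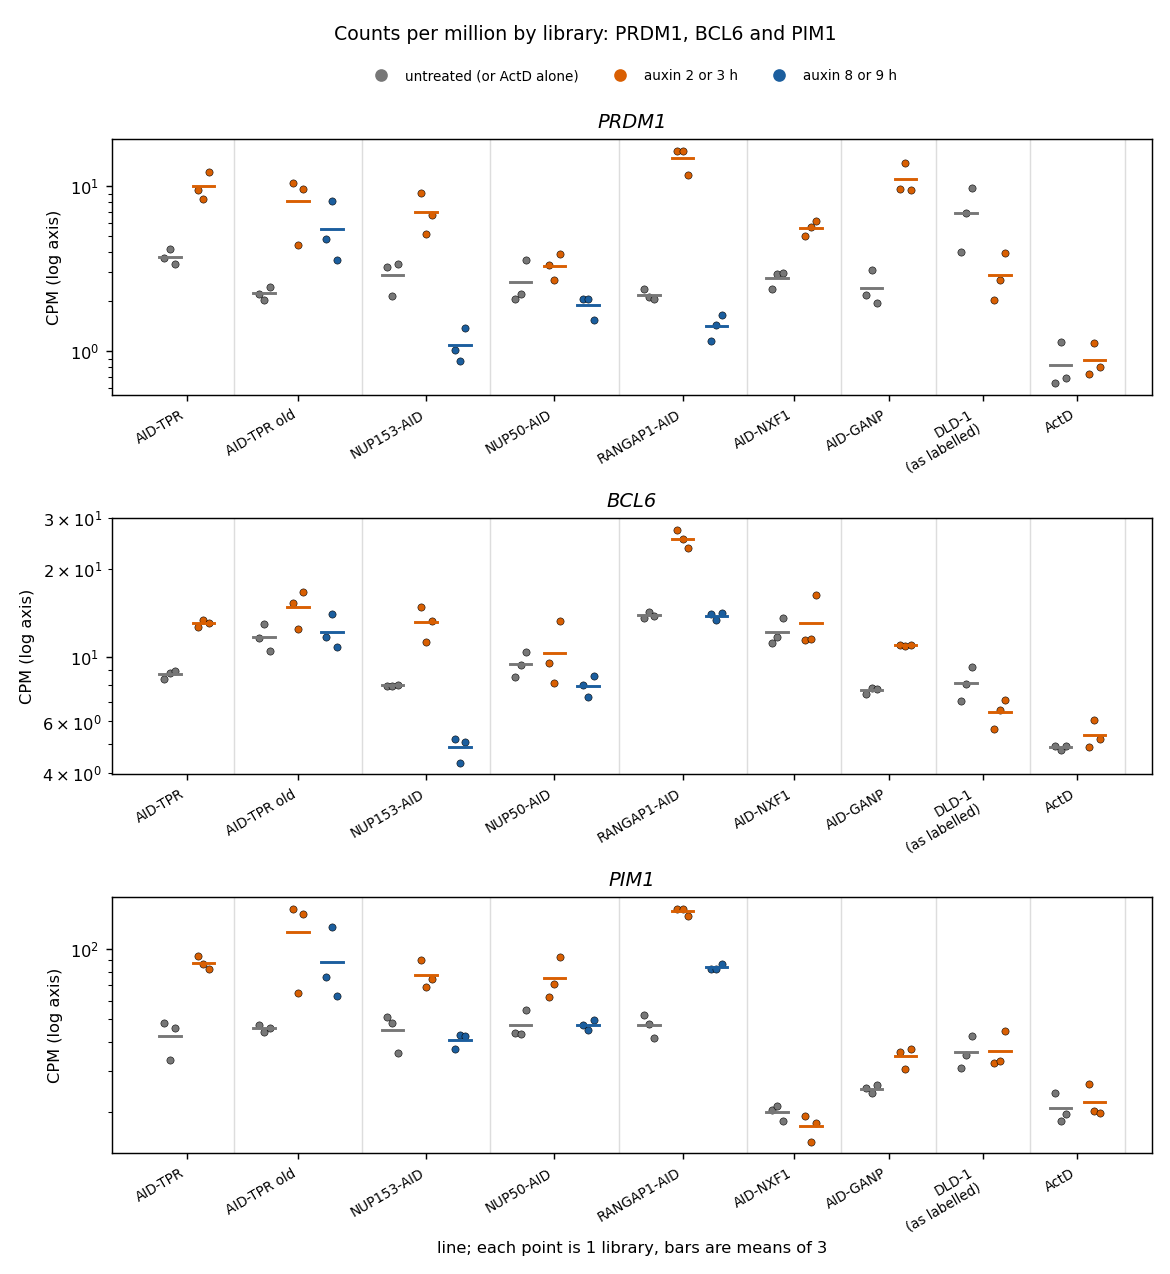
CPM (log axis) of PRDM1, BCL6 and PIM1 in each library, by line, with the mean of 3 libraries as a bar; grey is untreated or ActD alone, orange auxin for 2 or 3 h and blue auxin for 8 or 9 h. In NUP153-AID the orange points of PRDM1 (5.14 to 9.05 CPM) lie above the grey and the blue ones (0.87 to 1.39 CPM) below them.

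PIM1 was called higher in 6 of the 11 comparisons, and in RANGAP1-AID its 2 h level was the higher of both times. It read 52.3, 47.8 and 41.6 CPM untreated, 149, 148 and 139 CPM at 2 h (1.66 ± 0.10) and 81.9, 82.6 and 86.2 CPM at 8 h (0.86 ± 0.09). In AID-TPR it went from 48.1, 33.4 and 46.1 CPM to 93.7, 86.2 and 82.2 CPM (1.07 ± 0.12). AID-TPR old read 47.4, 44 and 46 CPM untreated, 149, 64.9 and 141 CPM at 2 h and 76.2, 125 and 62.9 CPM at 8 h, again with library old2 at the level of the other time. Without it the log2 fold changes of 1.45 ± 0.24 and 1.07 ± 0.22 were 1.73 and 0.73. NUP153-AID and NUP50-AID had PIM1 above all untreated libraries at the early time only, by 0.80 ± 0.13 and 0.68 ± 0.14, both not called, and overlapped at the late time (-0.18 ± 0.11 and -0.02 ± 0.10). In AID-NXF1 the groups overlapped at 20.4, 21.3 and 18.3 CPM untreated and 19.3, 14.9 and 18 CPM after auxin (-0.15 ± 0.10). The untreated level of PIM1 was 36.3 to 47.2 CPM in 6 line sets, with every neighbour overlapping, and lower in AID-GANP (25.2 ± 1.03 CPM; SD, n = 3) and AID-NXF1 (20 ± 1.55 CPM).

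RND3 was called higher in the 3 AID-TPR comparisons, both RANGAP1-AID comparisons and AID-GANP, and in no other. AID-TPR old read 52.6, 52.2 and 44.3 CPM untreated, 102, 119 and 82.8 CPM at 2 h (1.15 ± 0.17) and 152, 87.6 and 119 CPM at 8 h (1.40 ± 0.18), and without auxin library old2 the log2 fold changes were 0.97 and 1.58. AID-GANP went from 87.5, 99.8 and 79.4 CPM to 151, 167 and 135 CPM (0.87 ± 0.10). In AID-TPR the step was smaller, from 81.3, 69.6 and 77.8 CPM to 117, 97.8 and 102 CPM (0.50 ± 0.08). In NUP153-AID, NUP50-AID and AID-NXF1 the auxin and untreated libraries overlapped at each time, with log2 fold changes from -0.28 to 0.12, whereas STMND1 was above untreated in those same libraries. RND3 or PIM1 was the highest of the 9 genes per kilobase of exon in all 8 untreated groups, RND3 at 11.2 to 30.4 CPM per kb.

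LINC02029 was called higher in 4 comparisons: AID-TPR (1.49 ± 0.21), AID-TPR old at 8 h (1.81 ± 0.37), AID-NXF1 (1.97 ± 0.27) and AID-GANP (1.14 ± 0.17). In AID-NXF1, where ALDH1A3, RND3, PIM1 and BCL6 overlapped, it went from 1.66, 1.88 and 0.701 CPM to 5.8, 6.03 and 4.1 CPM. AID-TPR read 1.51, 0.84 and 1.51 CPM untreated and 3.34, 3.63 and 3.67 CPM after auxin. In AID-TPR old it read 0.406, 0.52 and 0.43 CPM untreated, 4.62, 0.357 and 2 CPM at 2 h and 1.29, 2.1 and 0.972 CPM at 8 h. Library old2 labelled 2 h lay below the untreated libraries, and the 2 h difference of 2.41 ± 0.71 was not called. Without auxin library old2 it was 2.92 ± 0.40 and called higher, and the 8 h difference was 1.44. RANGAP1-AID read 0.886, 0.335 and 0.541 CPM untreated, 2.18, 1.91 and 1.44 CPM at 2 h (1.69 ± 0.31, not called) and 0.53, 0.717 and 0.665 CPM at 8 h, back within the untreated range. Of its exon bases 54.2% overlap those of LINC00880 on the other strand, which did not pass the filter.

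**Figure D5:**
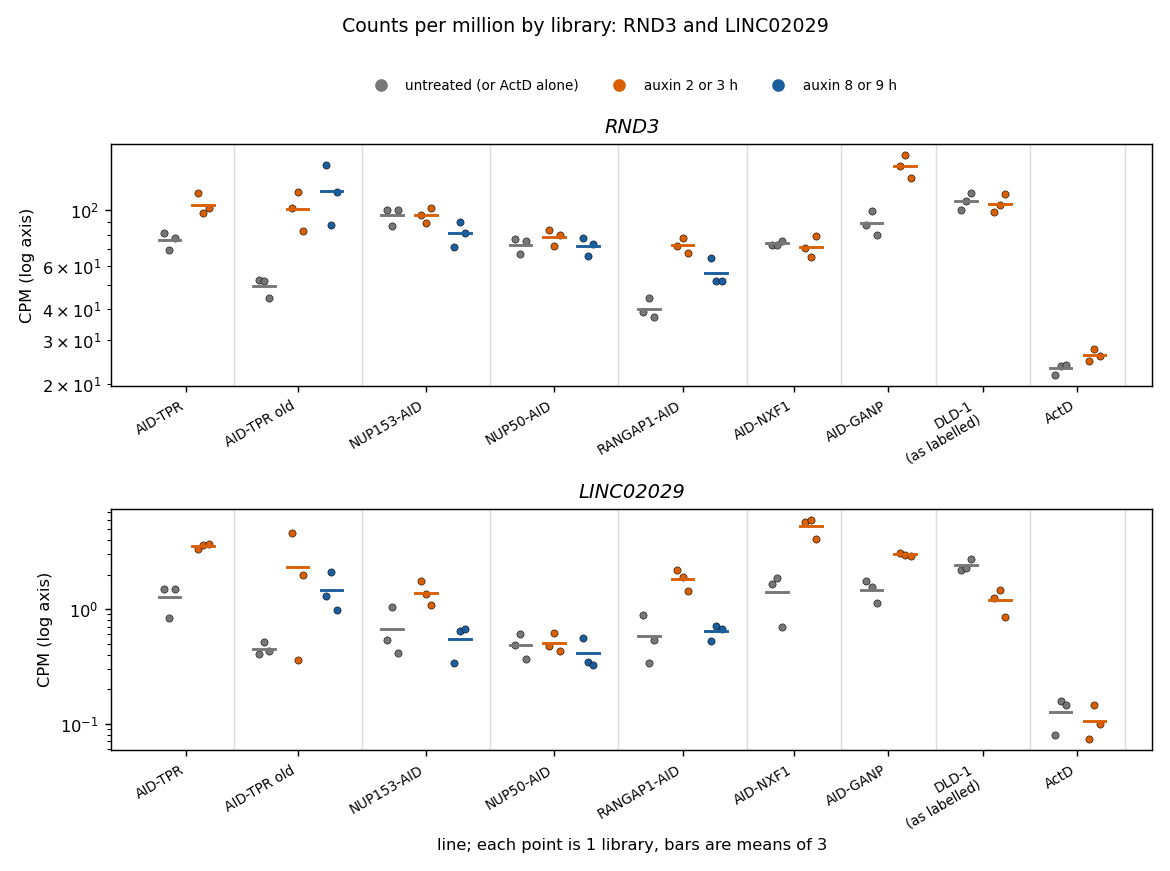
CPM (log axis) of RND3 and LINC02029 in each library, by line, with the mean of 3 libraries as a bar; grey is untreated or ActD alone, orange auxin for 2 or 3 h and blue auxin for 8 or 9 h. RND3 differs from untreated in the AID-TPR, RANGAP1-AID and AID-GANP lines, and LINC02029 in AID-NXF1 reaches 6.03 CPM against at most 1.88 CPM untreated.

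Of the 4 line sets with an early and a late time, the log2 fold change of PRDM1, PIM1, BCL6 and LINC02029 was lower at the late time in each, also without auxin library old2 in AID-TPR old. For ALDH1A3 the late value minus the early one was 0.73 in RANGAP1-AID and -0.78 in NUP50-AID. It was only 0.13 in AID-TPR old and 0.08 in NUP153-AID, where the libraries of both times overlapped. Without auxin library old2, ALDH1A3 in AID-TPR old was at 1.05 early and 1.44 late. PRDM1 differed most, by -3.36 in RANGAP1-AID and -2.71 in NUP153-AID between the times, against a median of -0.01 or 0 over all tested genes. Both times of a line share their untreated libraries, and the difference between times was not tested.

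Parental DLD-1 was given auxin without a tagged protein, as far as its labels hold. The study's methods describe inserting TIR1 into the tagged lines, so the parts of tag, TIR1 and cloning cannot be told apart here. edgeR called 0 of the 9 genes, and of all genes 0% were called higher and 0.0561% lower. At an unadjusted p under 0.05 were 7 of the 9, and DESeq2 called 1, STMND1, as lower. In 6 of the 9 genes all libraries labelled auxin lay below all those labelled untreated. STMND1 read 1.39, 1.27 and 0.575 CPM in libraries labelled untreated and 0.257, 0.156 and 0.106 CPM in those labelled auxin, a log2 fold change of -2.58 ± 0.43 (edgeR adjusted p = 0.105, and 0.000773 by DESeq2). PRDM1 read 3.97, 6.84 and 9.68 CPM and 2.03, 2.68 and 3.95 CPM (-1.25 ± 0.31, edgeR adjusted p = 0.657), groups that touch but do not overlap. ADGRF1 read 99.1, 91.8 and 85.5 CPM and 72.8, 61 and 60.7 CPM (-0.50 ± 0.08, edgeR adjusted p = 0.0991).

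ALDH1A3 in DLD-1 read 22, 21.8 and 21.5 CPM where labelled untreated and 15.4, 18 and 15.8 CPM where labelled auxin (-0.40 ± 0.07, edgeR adjusted p = 0.173). ALDH1A3-AS1 (-0.41 ± 0.08, edgeR adjusted p = 0.203) and LINC02029 (-0.97 ± 0.20, edgeR adjusted p = 0.258) were also lower without overlap. RND3 (-0.03, 95% interval -0.16 to 0.11), PIM1 (0.02, -0.23 to 0.28) and BCL6 (-0.32, -0.56 to -0.09) overlapped between the labelled groups. Without library 3 labelled untreated, STMND1 and ADGRF1 were called lower, at -2.87 and -0.56. Without library 1 labelled untreated PRDM1 was (-1.53), and without library 1 labelled auxin ADGRF1 was (-0.59). TIPARP, another target of the aryl hydrocarbon receptor, also went against the labels (-1.77), and the sign of each DLD-1 value turns if the labels are exchanged.

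Under ActD, the question was whether auxin still moves these RNAs in AID-TPR when transcription is inhibited. edgeR called 0 of 9 genes with auxin and ActD against ActD alone, as did DESeq2. Of all tested genes 0% were called in either direction and 78 had an unadjusted p under 0.05, none of them one of the 9. PRDM1 read 0.637, 1.14 and 0.686 CPM with ActD and 0.727, 1.12 and 0.798 CPM with both (0.11, 95% interval -0.50 to 0.71). ALDH1A3 read 10.4, 8.77 and 10.9 CPM and 9.19, 9.15 and 11.1 CPM (-0.03, -0.30 to 0.23), and PIM1 24.2, 18.3 and 19.7 CPM and 26.3, 20.3 and 19.9 CPM (0.09, -0.17 to 0.36). For these 3 genes the interval ended below the log2 fold change of the same line without ActD. RND3 alone had no overlap, with 21.8, 23.7 and 23.9 CPM and 24.8, 27.7 and 26 CPM (0.17, -0.01 to 0.35, edgeR adjusted p = 1). STMND1 (0.25, -0.72 to 1.22) had few reads, and ADGRF1 (0.13, -1.12 to 1.38) was at 9.55 and 10.1 CPM in replicate 3 of both groups against 2.16 to 3.89 CPM in the other libraries, so the log2 fold change of AID-TPR without ActD was outside the interval for STMND1 and inside it for ADGRF1. Same-numbered libraries paired here, and with the replicate block the interval of ADGRF1 (0.14, -0.04 to 0.31) ended below that value, and that of RND3 (0.17, 0.07 to 0.26) lay above 0, with edgeR adjusted p = 0.437.

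Under ActD alone, LINC02029, PRDM1, BCL6, PIM1 and RND3 were lower than in untreated AID-TPR old. The difference was -1.50 to -1.10 on the log2 scale of CPM plus 0.05. Untreated AID-TPR old likewise had mitochondrial counts and none on RMRP but carries another label set. Means were 0.821 against 2.23 CPM for PRDM1, 4.89 against 11.7 CPM for BCL6, 20.7 against 45.8 CPM for PIM1 and 23.1 against 49.7 CPM for RND3. ALDH1A3 (10 against 7.9 CPM), ADGRF1 (5.03 against 3.83 CPM) and STMND1 (0.31 against 0.146 CPM) had means above it, at 0.34, 0.39 and 0.88, and ALDH1A3-AS1 was at 2.32 against 3.17 CPM (-0.44). The ADGRF1 mean was above it only through ActD replicate 3, at 9.55 CPM. Replicates 1 and 2, at 3.38 and 2.16 CPM, lay below the untreated libraries (3.4 to 4.66 CPM). STMND1 rested on 3 to 23 reads a library under ActD and 2 to 6 untreated. Against the other untreated AID-TPR set, which had no mitochondrial counts, the means of all 9 under ActD were lower. In that set ALDH1A3 was at 18.3, ADGRF1 at 11.8 and STMND1 at 0.351 CPM untreated. The median over 15396 genes was -0.13. The 2 sets of libraries cannot be told apart from the treatment here, and no test was made.

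Genes of the same pathways as the 9 were listed by known function. Of 15 tested genes for the synthesis, carriage, breakdown and reception of retinoic acid, 0 were called by edgeR in AID-TPR at 2 h. Their median log2 fold change was 0.02. Of all tested genes only 0.073% were called higher there and 0.404% lower, so 0 of 15 is near that share. CYP26A1, which breaks retinoic acid down, rose in AID-NXF1 by 0.81 ± 0.16 (edgeR adjusted p = 0.00462) and in AID-GANP by 1.58 ± 0.39 (edgeR adjusted p = 0.0123). Its means were low, from 1.37 to 2.31 CPM in AID-NXF1 and from 0.281 to 0.757 CPM in AID-GANP. Of all genes 2.18% and 3.93% were called higher in these comparisons. In DLD-1 as labelled CYP26A1 was at -1.60 ± 0.50, not called. RXRB, a partner of the retinoic acid receptors, rose in RANGAP1-AID at 8 h by 0.50 ± 0.08 and fell in AID-GANP, where its log2 fold change was -0.79 ± 0.08. Of 14 tested partners and targets of PRDM1 and BCL6, 2 were higher and 1 lower in RANGAP1-AID at 8 h (8.23% and 6.62% of all genes). In the other comparisons 0 were called, where 0% to 3.93% of all genes were called higher and 0% to 11.5% lower.

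Among 20 tested genes of PIM kinases and JAK-STAT signalling, the paralogues of PIM1 were called in opposite directions. PIM2 was lower in AID-TPR old at 8 h (-0.64 ± 0.15, edgeR adjusted p = 0.0493, close to the limit), AID-NXF1 (-0.81 ± 0.10) and AID-GANP (-1.10 ± 0.10). PIM3 was higher in AID-TPR old at 8 h (1.12 ± 0.24) and AID-GANP (0.67 ± 0.07). CISH, a feedback inhibitor induced by STAT5, was lower in RANGAP1-AID at 8 h (-1.0 ± 0.23), AID-NXF1 (-1.41 ± 0.15) and AID-GANP (-1.22 ± 0.15), and SOCS2, another such inhibitor, was higher in the first (0.56 ± 0.08) and lower in AID-GANP (-0.70 ± 0.09). In AID-GANP the list had 2 genes higher and 3 lower, where 3.93% of all genes were higher and 11.5% lower.

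Of 15 tested adhesion receptors, the family of ADGRF1, 1 was lower in AID-TPR old at 8 h (2.36% of all genes), and 2 were higher and 1 lower in RANGAP1-AID at 8 h (8.23% and 6.62% of all genes). Neither of the 2 tested stathmin genes was called in any comparison, where 0% to 8.23% of all genes were called higher and 0% to 11.5% lower.

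Tested genes within 100 kb were few: none beside STMND1, ADGRF1 or RND3, 1 beside PRDM1, 1 beside BCL6, 2 beside PIM1, 3 beside ALDH1A3 and 4 beside LINC02029. CCNL1, a cyclin that acts in splicing, lies near LINC02029 and was called higher in the same 4 comparisons, by 0.40 ± 0.07 in AID-TPR, 0.79 ± 0.13 in AID-TPR old at 8 h, 0.77 ± 0.07 in AID-NXF1 and 0.92 ± 0.08 in AID-GANP. LEKR1, on the same stretch, was higher in AID-NXF1 (1.40 ± 0.13) and AID-GANP (0.74 ± 0.17) and also at both times of RANGAP1-AID, where LINC02029 was not called. A Y_RNA gene there was higher in AID-NXF1 (0.75). Beside ALDH1A3, ENSG00000272639 was called with it in RANGAP1-AID at 8 h (1.47 ± 0.21) and AID-GANP (1.20 ± 0.26). TBC1D22B near PIM1 was higher in RANGAP1-AID at 8 h (0.53 ± 0.08) and AID-GANP (0.50 ± 0.11). Beside BCL6, ENSG00000228804 shares 171 exon bases with it on the other strand and was higher in AID-GANP (0.83 ± 0.23). The neighbour of PRDM1, ATG5, was called in none of the comparisons in which PRDM1 was.

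The genes most like ALDH1A3 in log2 fold change over the 11 comparisons, among 11209 with at least 50 reads on average in each, were MED13L (Pearson's r = 0.932), RREB1 (0.929), RBM33 (0.928), RPRD2 (0.920) and SLC7A5 (0.913). SLC7A5, an amino acid transporter subunit, was called higher in 4 of the comparisons and had log2 fold changes of 0.12 to 0.80. MED13L was called higher in 2, RPRD2 in 1 and RREB1 and RBM33 in 0. For PRDM1 they were TCF4 (0.954), TIPARP (0.912), PPP1R15A (0.912), CREM (0.910) and NDRG1 (0.904). Log2 fold changes were -0.49 to 0.37 for TCF4, -0.26 to 0.11 for CREM and -0.81 to 0.30 for NDRG1. Each of these was called higher in 0 comparisons. TIPARP, like CYP1A1 a textbook target of the aryl hydrocarbon receptor, ranged from -0.58 to 2.65 and was -1.77 in DLD-1 as labelled. It passed as higher in 8 comparisons and was removed from all of them because it was also called in DLD-1. PPP1R15A, which ends the integrated stress response, passed as higher in 5, was -0.57 in DLD-1 as labelled and was removed likewise. These 11 points share untreated libraries within a line, so the coefficients only describe likeness. Pearson's r does not measure the size of a change or whether a gene rose.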

How the data were processed

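Total RNA of DLD-1 cells was depleted of ribosomal RNA and sequenced by the study. The authors deposited raw read counts per Ensembl gene, 1 file for each of the 66 libraries. The submitters' processing notes name CASAVA 1.8.2, STAR 2.6.1c and featureCounts 1.5.2 and the build GRCh38, and the strand setting of the counting is not given in the sources used here. Libraries without mitochondrial counts (24), with them but none on RMRP (33) and with both (9) may differ in how they were counted. Each comparison therefore used only the 3 auxin and 3 untreated libraries of 1 line and label set.

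Genes over 1 CPM in at least 4 of the 60 libraries without ActD were tested (17812) with edgeR 4.0.16's quasi-likelihood test on TMM-scaled counts in R 4.3.3, with Benjamini-Hochberg adjustment over all of them. In counts simulated for AID-TPR at 2 h (17812 genes), the test recovered 100 of 100 genes changed by 1 and 100 of 100 changed by 2 on the log2 scale, with 7 false calls. The spread between simulated libraries was set to the same value for all genes, so recovery of genes whose libraries spread more was not tested. ADGRF1 in AID-TPR at 2 h, with a log2 fold change of 0.97 ± 0.38, was not called. Only genes above a minimum level were changed in the simulation. STMND1 (0.351 CPM in untreated AID-TPR), LINC02029 (1.29 CPM) and PRDM1 (3.72 CPM) lay below that level, so recovery at their levels was not tested. DESeq2 1.42.0, RLE scaling, no filter, the replicate number as a block and each library left out were the alternatives. Levels are CPM, counts scaled to all counted reads of a library, which were 18943661 to 55411411, and precision is that of 3 libraries a group. The labels number the replicates only, and the study's methods describe its RNA-seq replicates as biological and independent. The p-values measure the spread between these libraries.

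The members and gene lists were chosen with earlier results of these data known. Named were the 9 genes, list genes called in at least 2 comparisons (at most 6 a list), the 5 genes most like ALDH1A3 and PRDM1 over the 11 tagged comparisons, and tested genes within 100 kb called with a member. Samples were grouped by their titles. Same-numbered libraries deviated together (every pair's correlation of deviations from the group means over 0.1) in AID-TPR and NUP153-AID at 2 h, both RANGAP1-AID comparisons, AID-NXF1, AID-GANP and ActD, and not in AID-TPR old, NUP153-AID at 8 h, NUP50-AID or DLD-1. Gene positions are from GENCODE and start regions from RefSeq on GRCh38.p14. The gene list kept for RND3 is not reported here.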

Additional observations from a re-analysis of the deposited data

Results flagged for a closer look

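In NUP153-AID all auxin libraries lay above the untreated ones at 2 h and below them at 8 h for PRDM1, with a log2 fold change of -1.45 at 8 h, and for BCL6, with -0.74. PRDM1 did the same in RANGAP1-AID, with -0.58 at 8 h. The difference between the times was not tested, and both times share their untreated libraries.

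In DLD-1, the libraries labelled auxin lay below all those labelled untreated for 6 of the 9 genes. In some of the 7 early comparisons of tagged lines, all auxin libraries lay above the untreated ones. The log2 fold change in DLD-1 was -2.58 for STMND1, opposite to 7 of 7 early comparisons, -1.25 for PRDM1, opposite to 6, and -0.40 for ALDH1A3, -0.50 for ADGRF1 and -0.97 for LINC02029, each opposite to 5. It was -0.41 for ALDH1A3-AS1, opposite to 3. These differences between lines were not tested, and CYP1A1 and the study's published read numbers go against the DLD-1 labels. Groups of 3 are too small for a search for single outlying libraries.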

How the results depend on the processing

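No called value of the 9 genes changed direction under any alternative. With RLE scaling 55 of 55 calls stayed, with DESeq2 45 of 53 (2 had no adjusted p), without the filter on low counts 34 of 55 and with the replicate block 33 of 55. Of the 51 calls lost, 48 went by construction, because the gene was then also called in DLD-1 and removed; for the others the cause was not tested. The counts of genes called higher became 4 in AID-TPR old at 8 h, 1 in AID-NXF1 and 5 in AID-GANP, each both without the filter and with the replicate block. NUP153-AID at 2 h had 4 with DESeq2, without the filter and with the replicate block alike. NUP153-AID at 8 h had 0 higher with DESeq2 or the block and 2 without the filter, and 0 lower with the block and 1 without the filter. NUP50-AID at 9 h had 2 under each of the 3, and RANGAP1-AID at 8 h had 0 lower under each. In DLD-1, 1 gene was called lower with DESeq2 and 3 without the filter or with the replicate block. Pairing by number held in 7 comparisons, and in the others the samples share only a number. The block moved the calls over all genes from 85 to 389 in AID-TPR, from 4 to 105 in NUP153-AID at 2 h and from 0 to 5 under ActD. Over all genes DESeq2, no filter and the block gave 193, 262 and 389 calls in AID-TPR.

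With 1 library left out, 235 of 330 calls stayed and 95 were lost. The counts ran from 2 (without untreated replicate 3) to 7 in AID-TPR, from 0 (without untreated old2) to 7 in AID-TPR old at 2 h and from 0 (without auxin old3 or untreated old2) to 7 at 8 h. They ran from 0 to 1 in NUP153-AID at 2 h, and at 8 h from 0 to 3 higher and 0 to 2 lower. They ran from 3 to 4 in NUP50-AID at 3 h, 0 to 3 at 9 h, 7 to 9 in RANGAP1-AID at 2 h, 3 to 4 in AID-NXF1 and 8 to 9 in AID-GANP. In RANGAP1-AID at 8 h, 6 were higher and 0 to 1 lower, and in DLD-1 0 to 2 were lower. STMND1 and LINC02029 rest on few reads, as few as 2 a library.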
